A study of Mus musculus with 8 samples.

Results

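A set of 36 genes of the cell division cycle and of DNA replication was followed through chromatin maps of differentiating mouse embryonic stem cells. The members were a given list of 36 gene symbols, out of 21887 protein-coding genes on the autosomes and the X and Y chromosomes, and all 36 were found in the gene table. They comprised 8 cyclins, 4 cyclin-dependent kinases (CDKs), 5 CDK inhibitors, 3 pocket proteins of the retinoblastoma family, 4 E2F transcription factors, 6 subunits of the Mcm helicase, the proliferation markers Mki67 and Pcna, and a set of 4 formed by the phosphatase gene Cdc25a, the mitotic kinase genes Plk1 and Aurkb, and Cdc20, which encodes an activator of the anaphase-promoting complex. A gene was called marked in a list if any deposited peak reached to within 1 kb of its lower or higher end.

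The cells were embryonic stem cells of the 129/Ola strain, plated on gelatin and differentiated without serum in N2B27, a medium in which many such cells turn toward the neural lineage. Histone H3 acetylation (H3ac), which is found at promoters and enhancers in use, was mapped by chromatin immunoprecipitation and sequencing on day 2, day 4 and day 6, and the histone deacetylase HDAC1 was mapped on day 2 as the tagged protein the labels call 3 FLAG-HDAC1. The labels name no genotype or drug treatment, undifferentiated cells were not analysed here, and nothing in the labels says whether the tagged protein replaced or joined the cells' own HDAC1. Each target and day had 1 precipitated library with 1 input library, so differences between days or targets have no replicate check, and day and library cannot be told apart. The lists held 17368, 12945 and 5553 H3ac peaks on days 2, 4 and 6 and 5286 HDAC1 peaks, and the median peak at gene ends was 702, 883, 1967 and 331 bp wide. The peak lists give no read depth, and in a cell population a weaker mark in every cell and fewer marked cells cannot be told apart. Marker genes went with the labels in part: all 4 pluripotency markers examined (Pou5f1, Nanog, Sox2, Utf1) were acetylated at an end on day 2 and 1 of them, Sox2, which neural progenitors also express, on days 4 and 6. The day 2 peak of Nanog was near the lowest score of its list (52.1, rank 16386 of 17368). Those of Pou5f1, Sox2 and Utf1 scored 1035.01, 302.68 and 607.2. The 5 neural progenitor markers gave 1, 4 and 2 over the days, none of the 5 mesendoderm and 3 trophoblast markers had a peak on any day, and 1 of 4 fibroblast markers had one on days 2 and 4.

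Cell division is driven by CDKs, which are switched on by cyclins that come and go with the cycle and held back by CDK inhibitors. D-type cyclins with Cdk4 or Cdk6, and E-type cyclins with Cdk2, phosphorylate the pocket proteins, which otherwise bind E2F factors and bring histone deacetylases to E2F target genes. Those targets include the Mcm genes, whose products unwind DNA at replication origins, while genes of the later phases are commonly controlled through CCAAT boxes and the cell cycle genes homology region (CHR). Embryonic stem cells divide quickly and keep the pocket proteins largely phosphorylated, and the cycle lengthens as they differentiate.

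The promoters of 12 members are shown because the results below turn on the peaks at these starts. They come from the RefSeq promoter table of build GRCm38.p6, which shares coordinates with mm10, and 27 of the 36 members matched an entry there. Each is printed 5′ to 3′ on the gene's own strand, from 180 bases before the annotated transcription start to 30 bases from it onward. Capitals mark motifs found by exact search on both strands: E2F sites, CHRs and CCAAT boxes (CCAAT). An E2F site was searched as TTCCCGC, as the variant written TTCGCGC and as the variant written TTGGCGC, and its strict form has a further T in front. A CHR was searched as TTTGAA and as the variant written TTCGAA. An E2F site and a CCAAT box can share letters, as in Ccnb1 and Mcm7. The first 6 sequences carry E2F sites and belong to genes of the transition into S phase and of replication.
Mcm5 (chr8:75109329-75109538, plus strand): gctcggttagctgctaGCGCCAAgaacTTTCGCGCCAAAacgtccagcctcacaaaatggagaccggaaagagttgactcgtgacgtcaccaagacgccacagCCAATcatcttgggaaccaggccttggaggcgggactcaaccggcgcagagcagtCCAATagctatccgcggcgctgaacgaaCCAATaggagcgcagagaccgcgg
Mcm6 (chr1:128359676-128359885, minus strand): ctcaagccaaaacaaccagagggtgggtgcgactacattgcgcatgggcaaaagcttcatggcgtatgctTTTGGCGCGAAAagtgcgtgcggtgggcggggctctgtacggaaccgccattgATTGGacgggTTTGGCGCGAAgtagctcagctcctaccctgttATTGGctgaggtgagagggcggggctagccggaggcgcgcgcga
Mcm7 (chr5:138171854-138172063, minus strand): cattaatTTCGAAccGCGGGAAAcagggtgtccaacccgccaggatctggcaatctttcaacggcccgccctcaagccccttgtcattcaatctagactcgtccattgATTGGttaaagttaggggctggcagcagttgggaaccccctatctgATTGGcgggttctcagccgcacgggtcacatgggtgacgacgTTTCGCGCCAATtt
Cdc25a (chr9:109875399-109875608, plus strand): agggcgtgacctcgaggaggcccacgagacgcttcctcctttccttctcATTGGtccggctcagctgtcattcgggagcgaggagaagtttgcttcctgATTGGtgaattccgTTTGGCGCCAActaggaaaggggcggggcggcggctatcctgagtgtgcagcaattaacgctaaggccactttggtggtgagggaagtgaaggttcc
Rbl1 (chr2:157204505-157204714, minus strand): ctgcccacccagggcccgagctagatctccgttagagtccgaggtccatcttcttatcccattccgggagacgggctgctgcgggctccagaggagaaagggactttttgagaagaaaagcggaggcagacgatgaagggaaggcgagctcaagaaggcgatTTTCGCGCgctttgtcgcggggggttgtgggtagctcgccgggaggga
Cdk2 (chr10:128705022-128705231, minus strand): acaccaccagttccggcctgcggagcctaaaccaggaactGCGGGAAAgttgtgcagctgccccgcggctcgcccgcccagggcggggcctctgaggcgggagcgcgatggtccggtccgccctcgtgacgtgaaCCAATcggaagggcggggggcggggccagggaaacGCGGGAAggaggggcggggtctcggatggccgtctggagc
The next 4 belong to genes of mitosis and carry CCAAT boxes, with a CHR in all but Ccnb1.
Cdk1 (chr10:69352883-69353092, minus strand): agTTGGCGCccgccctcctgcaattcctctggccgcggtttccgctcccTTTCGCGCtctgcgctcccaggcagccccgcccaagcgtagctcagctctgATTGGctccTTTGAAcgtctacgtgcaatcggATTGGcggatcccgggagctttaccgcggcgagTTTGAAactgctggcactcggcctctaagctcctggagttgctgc
Ccnb1 (chr13:100786457-100786666, minus strand): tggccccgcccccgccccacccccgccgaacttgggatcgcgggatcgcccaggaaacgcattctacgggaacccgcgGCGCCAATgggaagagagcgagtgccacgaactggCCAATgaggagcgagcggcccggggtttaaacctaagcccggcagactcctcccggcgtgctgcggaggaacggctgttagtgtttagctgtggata
Ccnb2 (chr9:70421525-70421734, minus strand): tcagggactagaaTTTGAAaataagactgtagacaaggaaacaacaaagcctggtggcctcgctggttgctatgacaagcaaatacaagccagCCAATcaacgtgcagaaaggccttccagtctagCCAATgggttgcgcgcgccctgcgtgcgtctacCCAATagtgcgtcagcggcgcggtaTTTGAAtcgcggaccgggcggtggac
Cdc20 (chr4:118437314-118437523, minus strand): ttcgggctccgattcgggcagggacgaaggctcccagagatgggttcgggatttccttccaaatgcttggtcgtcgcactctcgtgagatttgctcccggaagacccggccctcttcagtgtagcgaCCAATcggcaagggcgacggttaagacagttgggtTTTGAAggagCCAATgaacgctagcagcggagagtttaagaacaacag
The last 2 are starts with an HDAC1 peak close by and hold none of these motifs in the window shown. The annotated E2f1 start, at 154569426, lies inside the gene, whose higher end is at 154569892. The sequence at that outer end was therefore not searched.
Ccne1 (chr7:38107461-38107670, minus strand): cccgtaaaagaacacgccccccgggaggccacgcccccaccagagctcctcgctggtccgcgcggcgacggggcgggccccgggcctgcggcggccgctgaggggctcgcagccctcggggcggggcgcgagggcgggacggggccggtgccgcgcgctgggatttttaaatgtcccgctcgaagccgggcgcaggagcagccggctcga
E2f1 (chr2:154569397-154569606, minus strand): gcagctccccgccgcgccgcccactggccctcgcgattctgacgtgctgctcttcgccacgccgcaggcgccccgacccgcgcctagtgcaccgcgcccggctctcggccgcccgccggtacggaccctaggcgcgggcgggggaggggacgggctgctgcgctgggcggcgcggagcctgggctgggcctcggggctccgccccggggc

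Most members were acetylated at a gene end on days 2 and 4, and fewer on day 6. The count was 29 of 36 on day 2 (80.6%, 95% Wilson interval 65.0 to 90.2%), against 40.6% of all protein-coding genes. It was 29 of 36 on day 4 (80.6%), against 38.0%, and 21 of 36 on day 6 (58.3%, 42.2 to 72.9%), against 23.3%. A gene-end H3ac peak was present on all 3 days at 19 members, where 18.5% of all genes had one. Only 3 members, Ccnd3, Cdkn1a and Cdkn1c, had none on any day, against 52.3% of all genes. Of the 29 members marked on day 2, 27 were also marked on day 4 (93.1%, 78.0 to 98.1%), against 79.0% of all genes marked on day 2. On day 6, 19 of the 29 were marked (65.5%, 47.3 to 80.1%), against 49.9%. Both of these intervals include the share of all genes. The intervals cover counting error only, and related genes are not independent draws.

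**Figure D1:**
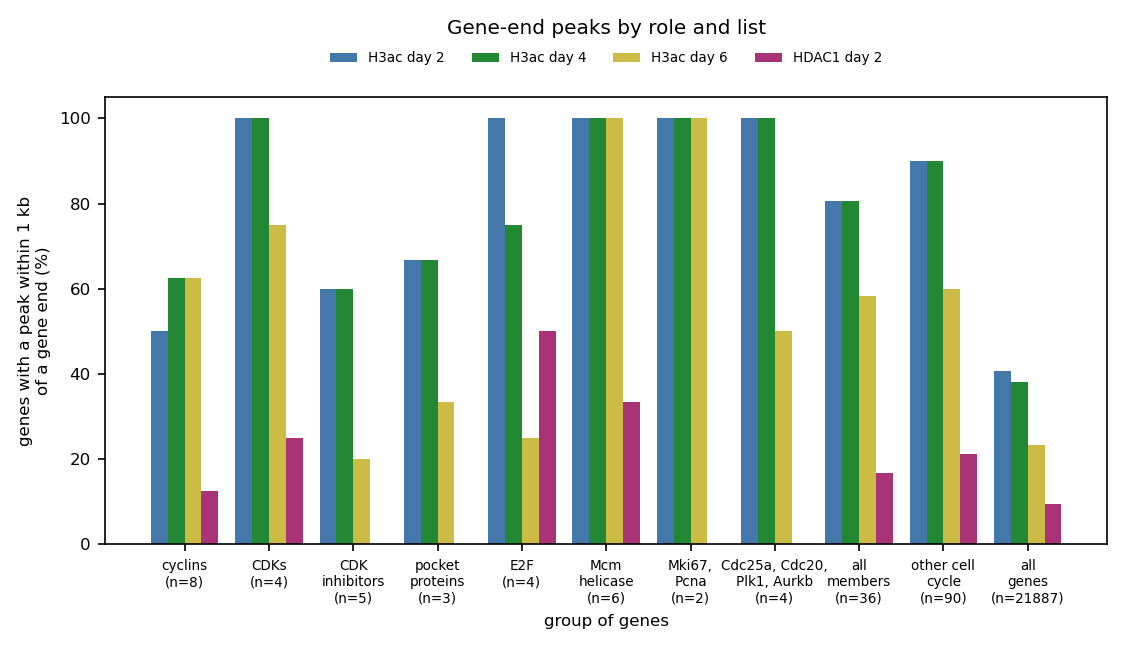
Share of genes with a peak within 1 kb of a gene end (y axis, percent) for each role, for all members, for 90 other cell cycle genes and for all protein-coding genes, with 1 bar per peak list. The Mcm genes stand at 100% in the 3 H3ac lists, whereas the E2F factors go from 100% on day 2 to 25% on day 6.

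The gap between the early days and day 6 was also described with lists of equal length. With every list held to its 5286 top-scoring peaks, so that 22.3%, 22.8% and 22.4% of all genes were marked on days 2, 4 and 6, the members marked numbered 24, 23 and 20. The gap of 8 members between day 2 and day 6 in the full lists was 4 with lists of equal length, where the early counts were lower. The part of list length, read depth or peak width in the gap was not tested. With the higher-scoring 50% of each list the counts were 28, 24 and 11, against 30.5%, 26.6% and 12.9% of all genes, and 9 members were marked on all 3 days, against 8.88%. By score the members stood high in the early lists. The authors' score is a value per peak whose scale is not given, and it ranks peaks within a list only. Of the marked members, 23 of 29 on day 2 and 20 of 29 on day 4 had a top gene-end peak above the median over all marked genes, and 10 of 21 did on day 6. The median top score was 293.12 for members against 133.90 for all marked genes on day 2, 238.27 against 148.69 on day 4 and 132.42 against 137.91 on day 6.

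**Figure D2:**
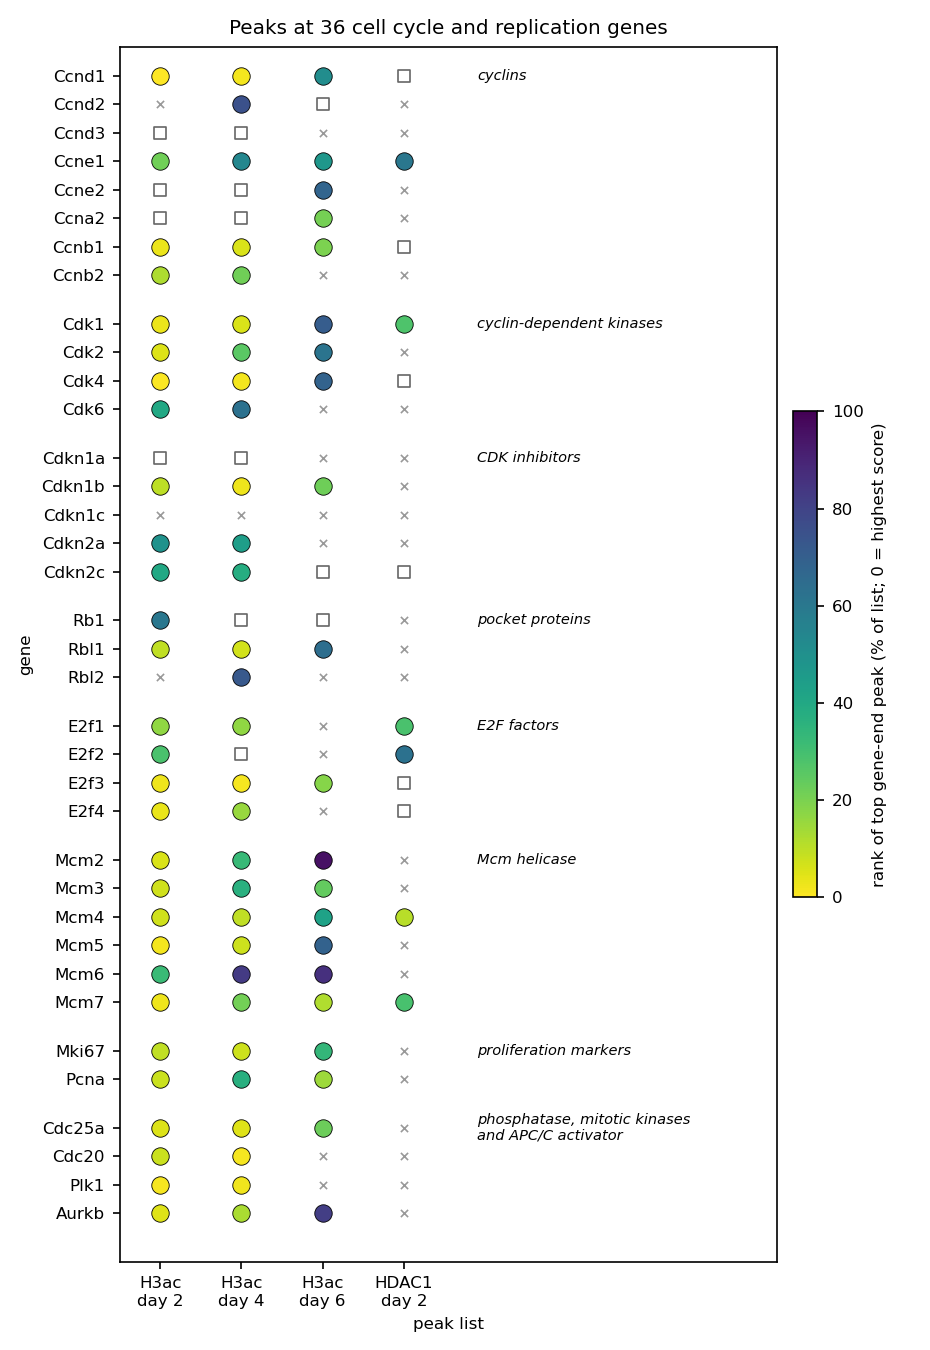
Each row is a member and each column a peak list. Filled circles are gene-end peaks coloured by the rank of the highest-scoring one (percent of the list, 0 being the highest score), open squares mark genes with a peak in the gene or within 10 kb but not within 1 kb of an end, and crosses mark genes with neither. All 6 Mcm genes have a circle in each H3ac column, 21 members have one on day 6, and 6 members have one in the HDAC1 column.

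All 6 Mcm genes of the replicative helicase were acetylated at a gene end on every day, as were both proliferation markers. Mcm5, on chromosome 8 from 75109468 to 75128439, had the highest day 2 score of the 6. Its peak scored 536.92 on day 2 (rank 287 of 17368), 328.24 on day 4 (rank 1001 of 12945) and 85.93 on day 6 (rank 3839 of 5553). The Mcm7 peaks scored 465.27, 199.22 and 347.19, so that Mcm7 and not Mcm5 led the role on day 6. Mcm2 scored 324.70, 149.15 and 54.20, and its day 6 peak, ranked 5309, was among the weakest of that list. Mcm3 scored 293.12, 136.90 and 228.50. Mcm4 had a peak across its end and a second one just beyond it on days 2 and 4, of which the second scored higher (297.89 and 297.27). On day 6 a single peak of 145.30 spanned the same stretch. Mcm6 was the weakest of the role on days 2 and 4, with 115.00, 57.75 and 63.68. With lists of equal length 5 of the 6 were marked on each day, the one missing being Mcm6 on days 2 and 4 and Mcm2 on day 6. When only the higher-scoring 50% of each list was used, 6, 5 and 3 of the 6 Mcm genes were marked on days 2, 4 and 6. An end of Prkdc lay within 2 kb of the marked end of Mcm4, and an end of Ap4m1 within 2 kb of that of Mcm7, and the gene-end peaks of both members also lay within 1 kb of those neighbours. The other 4 Mcm genes had no neighbouring end that close.

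Of the 4 CDK genes, 4, 4 and 3 were marked on days 2, 4 and 6. Cdk4, the kinase partner of D-type cyclins, on chromosome 10 from 127063535 to 127067288, had a peak of score 789.67 and rank 93 on day 2, of 580.00 and rank 217 on day 4, and of 86.68 and rank 3808 on day 6. Cdk1, the kinase of mitotic entry, scored 435.36, 370.71 and 83.41. Cdk2, the partner of E-type cyclins and cyclin A, scored 340.15, 177.79 and 98.29. In each of these 3 genes the day 6 peak was wider than the earlier ones, and its score ranked between 3420 and 3946 of 5553. Among the higher-scoring 50% of each list, 4, 3 and 0 of the 4 CDK genes were marked. Cdk6, the other partner of D-type cyclins, had low-scoring peaks at its end on day 2 (96.16) and day 4 (77.67). Its annotated start lay further inside, under other weak peaks (63.74 and 72.56), and no day 6 peak came within 10 kb.

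The cyclins differed among themselves. Ccnd1, which encodes cyclin D1, lies on chromosome 7 from 144929931 to 144939831 and had the highest-scoring gene-end peak of the members on day 2, 1042.73 (rank 30, 3606 bp wide). That peak began 158 bp past the gene's higher end, and a peak across the end scored 536.19. On day 4 its top peak scored 553.30 (rank 245) but began 968 bp past the end, close to the 1 kb limit. The day 4 peak across the end scored 417.34. On day 6 a single peak of 6073 bp crossed the end and scored 120.94. Ccne1, for cyclin E1, had peaks of 157.09, 93.98 and 132.42, and Ccnb1, for cyclin B1, had peaks of 422.33, 370.80 and 262.30. These 3 cyclin genes were marked on every day. Ccnb2, for cyclin B2, was marked on day 2 (221.66) and day 4 (196.66), and its nearest day 6 peak lay 80698 bp away. That contrast separates the 2 B-type cyclins. Among all genes with a day 2 score at least that of Ccnb2, 29.0% had no day 6 gene-end peak.

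Of the other cyclin genes, some moved in and out of the count at its border. Ccna2, for cyclin A2, had a strong peak of 359.36 on day 2 and of 283.65 on day 4 that ended 1121 and 1145 bp short of its annotated end, and a wider day 6 peak of 253.37 that came within 323 bp. It therefore counted on day 6 alone with a window of 1 kb and on every day with 2.5 kb. Its end lay within 2 kb of an end of Bbs7, which the day 6 peak also reached. Ccne2, for cyclin E2, was alike, with peaks 1370 bp (95.97) and 1472 bp (61.92) from its end on days 2 and 4 and a peak across the end on day 6 (87.85). Ccnd2, for cyclin D2, differed from both, for it had no peak within 10 kb on day 2. On day 4 it had an internal peak of 540.31 and rank 255 that stopped 1066 bp from its end, beside a weaker one of 63.41 across the end. On day 6 the internal peak, of 183.38, stopped 1102 bp from the end. Ccnd3, for cyclin D3, was without a gene-end peak throughout, but a peak lay 393 bp downstream of its second annotated start on day 2 (80.35) and 215 bp downstream of it on day 4 (289.29). No day 6 peak came within 10 kb.

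The CDK inhibitors were the least marked role on day 6, with 1 of 5, after 3 of 5 on days 2 and 4. Their day 6 share of 20% was near the 23.3% of all genes and the 25% of the E2F factors. Cdkn1b, which encodes p27, on chromosome 6 from 134920401 to 134925525, was the 1 gene on day 6, and it counted there through its far end. A peak over the start scored 248.28 on day 2 and 362.53 on day 4, and no peak lay at the start on day 6. A further peak lay past the far end on every day, 1251 bp away on day 2 (548.92, rank 265, outside the 1 kb limit), 864 bp away on day 4 (516.09, rank 306) and 156 bp away on day 6 (243.44, rank 1229). At annotated starts, therefore, none of the 4 inhibitor genes with an entry was marked on day 6, against 4 of 4 on days 2 and 4. Of 14731 genes with 1 annotated start, 5893, 5575 and 3329 had a peak within 1 kb of it on days 2, 4 and 6. A day 6 count of 0 among 4 genes is thus not unusual. Cdkn1a, Cdkn2a and Cdkn2c have 2 starts, so the sets are not fully alike. Cdkn1a, which encodes p21, had no gene-end peak because its acetylation lay at the second of 2 annotated starts. A peak of 204.27 began 316 bp downstream of that start on day 2 and a peak of 418.25 (rank 549) began 90 bp downstream of it on day 4, with none within 10 kb on day 6. Cdkn2a, which gives rise to both p16 and p19ARF, had weak peaks at its outer start on day 2 (81.11 and 57.30) and a peak on day 4 (114.84) that lay 665 bp upstream. Cdkn2c, which encodes p18, had 96.62 and 132.35. Neither Cdkn2a nor Cdkn2c was marked on day 6. Cdkn1c, which encodes p57 and is imprinted, had no peak within 10 kb in any list.

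Among the pocket proteins, Rbl1, which encodes p107, was the 1 gene marked on every day, with 257.03, 344.96 and 94.06. Rb1, which encodes the retinoblastoma protein, had a weak peak 269 bp beyond its higher-coordinate end on day 2 (69.47) and no gene-end peak later. A peak well inside the gene scored 70.86 on day 2, 479.23 on day 4 and 1173.47 on day 6, where it ranked 17 of 5553. This peak, from 73237249 to 73240670 on chromosome 14 on day 6, spanned the nested gene Lpar6, a lysophosphatidic acid receptor gene from 73237891 to 73240358, and gene-end counts for Rb1 leave it out. Rbl2, which encodes p130, a pocket protein of resting cells, was marked on day 4 alone, by a peak of 66.11 across its start, and had no peak within 10 kb on days 2 and 6.

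The E2F genes went from 4 of 4 on day 2 to 3 on day 4 and 1 on day 6. The same numbers were seen with lists of equal length. All genes stood at 40.6%, 38.0% and 23.3% on these days, so the day 6 share of 25% was near theirs. With 0.5 kb, and at annotated starts (E2f4 having no entry), the numbers were 3, 3 and 1. Without ends near another gene they were 3, 2 and 1, and with any peak in the gene or within 10 kb 4, 4 and 1. E2f3 was the gene marked throughout, with 451.90 (rank 447), 590.28 (rank 201) and 275.38 (rank 1008). E2f1, the activator most closely tied to S phase entry, on chromosome 2 from 154559400 to 154569892, scored 188.61 on day 2 and 229.55 on day 4, and its nearest day 6 peak lay 86949 bp away. E2f4, which acts mostly as a repressor with the pocket proteins, scored 407.07 and 238.27 and had no day 6 peak within 10 kb. Of all genes with a day 2 score at least as high as E2f4, 16.7% had no day 6 gene-end peak. An end of Exoc3l lay within 2 kb of the marked end of E2f4, and the top peaks of E2f4 lay within 1 kb of it too. E2f2 was marked on day 2 (126.67), had a day 4 peak of 88.24 that covered its second annotated start, and had none within 10 kb on day 6.

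Mki67, the gene of the Ki-67 antigen of cycling cells, and Pcna, the gene of the sliding clamp of replication, were marked on every day. Mki67 scored 256.42, 335.25 and 177.63. Pcna scored 279.77, 136.24 and 312.16, and the latter ranked 822 of 5553. On days 2 and 4 the Pcna start lay between a stronger peak downstream and a weaker one upstream, and on day 6 a single peak of 3094 bp covered both sides. An end of Cds2 lay within 1 kb of all of these Pcna peaks.

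Genes of cell cycle progression and mitosis divided by day 6. Cdc25a, a phosphatase that activates Cdk2, scored 337.52, 399.19 and 240.46. Aurkb, the kinase of the chromosomal passenger complex, scored 344.59, 262.31 and 68.94. Both were marked on every day. Plk1, a kinase of mitotic entry and exit on chromosome 7 from 122159435 to 122169884, scored 581.93 on day 2 (rank 217) and 518.36 on day 4 (rank 298), and its nearest day 6 peak lay 25460 bp away. Of the 260 genes with a day 2 score at least that high, 27 (10.4%) had no day 6 gene-end peak. Cdc20 scored 280.76 on day 2 and 603.93 on day 4 (rank 183), and its nearest day 6 peak lay 22489 bp away. Of the 192 genes with a day 4 score at least that high, 12 (6.25%) had no day 6 gene-end peak. Plk1 and Cdc20 were thus strongly acetylated genes in the early lists without a gene-end peak on day 6, as was Ccnb2 at a lower score, whereas Ccnb1, Cdk1, Cdc25a and Aurkb had one on all 3 days.

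Of the 7 members with no gene-end H3ac peak at day 2, 4 (Ccnd2, Ccne2, Ccna2 and Rbl2) had one at day 4 or day 6 (57.1%, 25.0 to 84.2%), against 12.1% of all such genes. For Ccna2 and Ccne2 this rested on the window of 1 kb, as described above. Ccnd2 and Rbl2 had no day 2 peak within 10 kb, but their day 4 gene-end peaks were weak. These scored 63.41 and 66.11, with ranks 9718 and 9383 of 12945. Neither gene counted with lists of equal length or with the higher-scoring 50%.

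**Figure D3:**
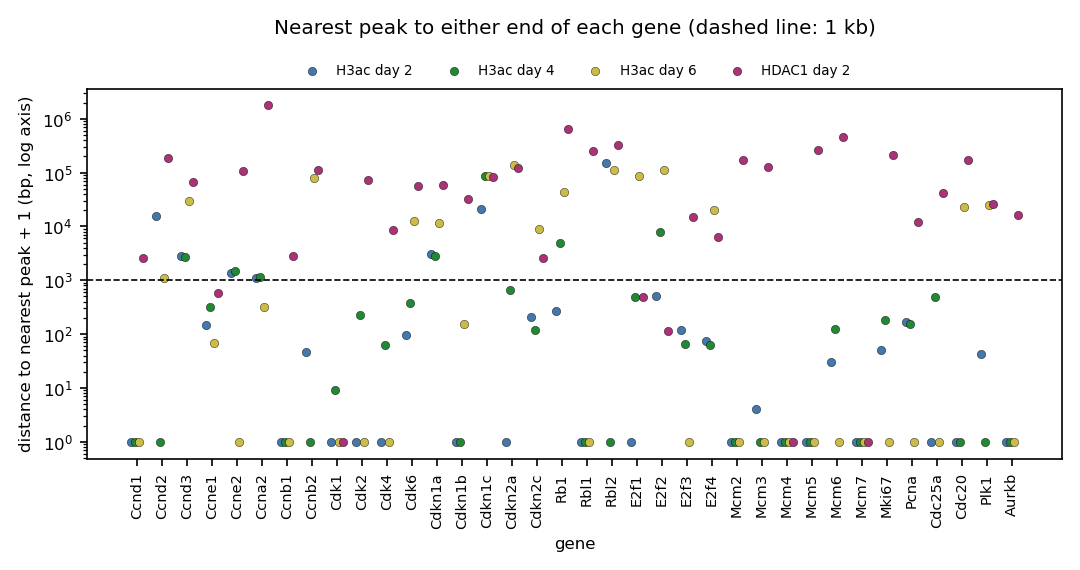
Distance from either end of each member to the nearest peak of each list, plus 1 bp, on a log axis, with a dashed line at the 1 kb limit. Ccna2, Ccne2 and Ccnd2 have H3ac points just above the line, between 1102 and 1472 bp, while Plk1, Cdc20 and Ccnb2 have day 6 points above 20 kb.

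HDAC1 was mapped on day 2 alone, and its peaks were few at these genes. It had a gene-end peak at 6 of 36 members (16.7%, 7.87 to 31.9%), against 9.40% of all genes, and the interval includes the latter share. The genes were Ccne1, Cdk1, E2f1, E2f2, Mcm4 and Mcm7. All 6 had a day 2 H3ac peak, as did 1661 of the 2057 HDAC1-marked genes in the whole gene table. Among members marked by H3ac on day 2, 6 of 29 carried HDAC1 (20.7%, 9.85 to 38.4%), close to the 18.7% of all genes so marked. Of the 7 members without a day 2 H3ac peak, 0 carried it (upper bound 35.4%), against 3.04% of such genes. By role, HDAC1 was at 1 of 8 cyclins, 1 of 4 CDKs, 2 of 4 E2F factors, 2 of 6 Mcm genes and at no inhibitor, pocket protein, proliferation marker or gene of the Cdc25a, Cdc20, Plk1 and Aurkb set.

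The HDAC1 peaks at member ends had a median width of 341 bp, near the 331 bp of all HDAC1 gene-end peaks. They lay within 1 kb of an annotated start at the 5 genes that had one, which Mcm4 lacked. The strongest was at Mcm4, of score 120.95 (rank 566 of 5286), from 15636921 to 15637463 on chromosome 16. It lay across the gene's end and shared 492 of its 543 bp with the day 2 H3ac peak that also crossed that end. At Cdk1 a peak of 82.76 ran from 136 bp upstream to 183 bp downstream of the start and shared 201 of 320 bp with H3ac. At E2f1 a peak of 81.42 ran from 18 to 358 bp downstream of the annotated start and lay wholly within the H3ac peak. That start lies inside the gene, and the peak was 484 bp from the gene's higher end. At Mcm7 a peak of 68.43 covered the inner of its 2 annotated starts, and a peak of 80.89 lay 199 to 653 bp upstream of the outer one. At Ccne1 a peak of 60.36 lay 590 to 870 bp downstream of the start. The E2f2 peak, of 59.23, lay 115 to 335 bp downstream, between the start and the H3ac peak that began 517 bp downstream, and shared 0 bp with it. The scores at Ccne1 and E2f2 were below the median of 66.38 over all HDAC1-marked genes. Ends of Prkdc and Ap4m1 lay within 1 kb of the HDAC1 peaks at Mcm4 and Mcm7. Without ends that lay within 2 kb of another gene, 4 members carried HDAC1, namely Ccne1, Cdk1, E2f1 and E2f2.

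Whether HDAC1 on day 2 went with acetylation later could be described for few genes. Of the 6 members with HDAC1, 4 had a day 6 H3ac peak (Ccne1, Cdk1, Mcm4 and Mcm7), against 53.3% of all genes with HDAC1 and day 2 H3ac. Of the 23 with day 2 H3ac and no HDAC1, 15 had one (65.2%, 44.9 to 81.2%), against 49.1% of all such genes. The shares of 66.7% and 65.2% differed by far less than their intervals. Beyond gene ends, HDAC1 peaks in the gene or within 10 kb were found at 6 further members, Ccnd1, Ccnb1, Cdk4, Cdkn2c, E2f3 and E2f4. The resulting 12 of 36 (33.3%, 20.2 to 49.7%) stood against 21.5% of all genes, a share within the interval. All 12 also had a day 2 H3ac peak by that rule, as did 3875 of the 4712 genes with HDAC1 by it. Both were thus found at 33.3% of members, against 17.7% of all genes. By that rule, chosen after seeing the data, 33 of 36 members had day 2 H3ac, so the shared count adds little to the HDAC1 count. The 2 peaks need not lie near each other. The one near Ccnb1, of score 82.88, lay within 1 kb of an end of Cenph, the one near Cdk4, of 55.62, within 1 kb of an end of Cyp27b1, and the one near E2f4, of 74.62, within 1 kb of an end of Exoc3l.

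Peaks lay just inside the genes. Of the 20 members with 1 annotated start, 19 had a day 2 H3ac peak within 1 kb of it, and the midpoint of the strongest lay downstream in 17, at a median of 522 bp (all genes 339 bp, with 74.5% downstream). On day 4 the 20 members with a peak gave 584 bp with 17 downstream, against 407 bp and 77.8% for all genes. On day 6 the 13 members with a peak gave 747 bp with 13 downstream, against 383 bp and 79.6%. The day 6 peak covered the start itself at 12 of 13 members, the day 2 peak at 12 of 19 and the day 4 peak at 10 of 20. Over all genes the shares were 84.2%, 44.5% and 46.7%, so the wider day 6 peaks reached the start more often in both sets. Peaks at member gene ends had median widths of 1059, 1153 and 2511 bp on days 2, 4 and 6, above the 702, 883 and 1967 bp of all gene-end peaks. On days 2 and 4 several starts lay in a gap between flanking peaks, as at Pcna on both days and at Plk1 and Ccne1 on day 2.

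**Figure D4:**
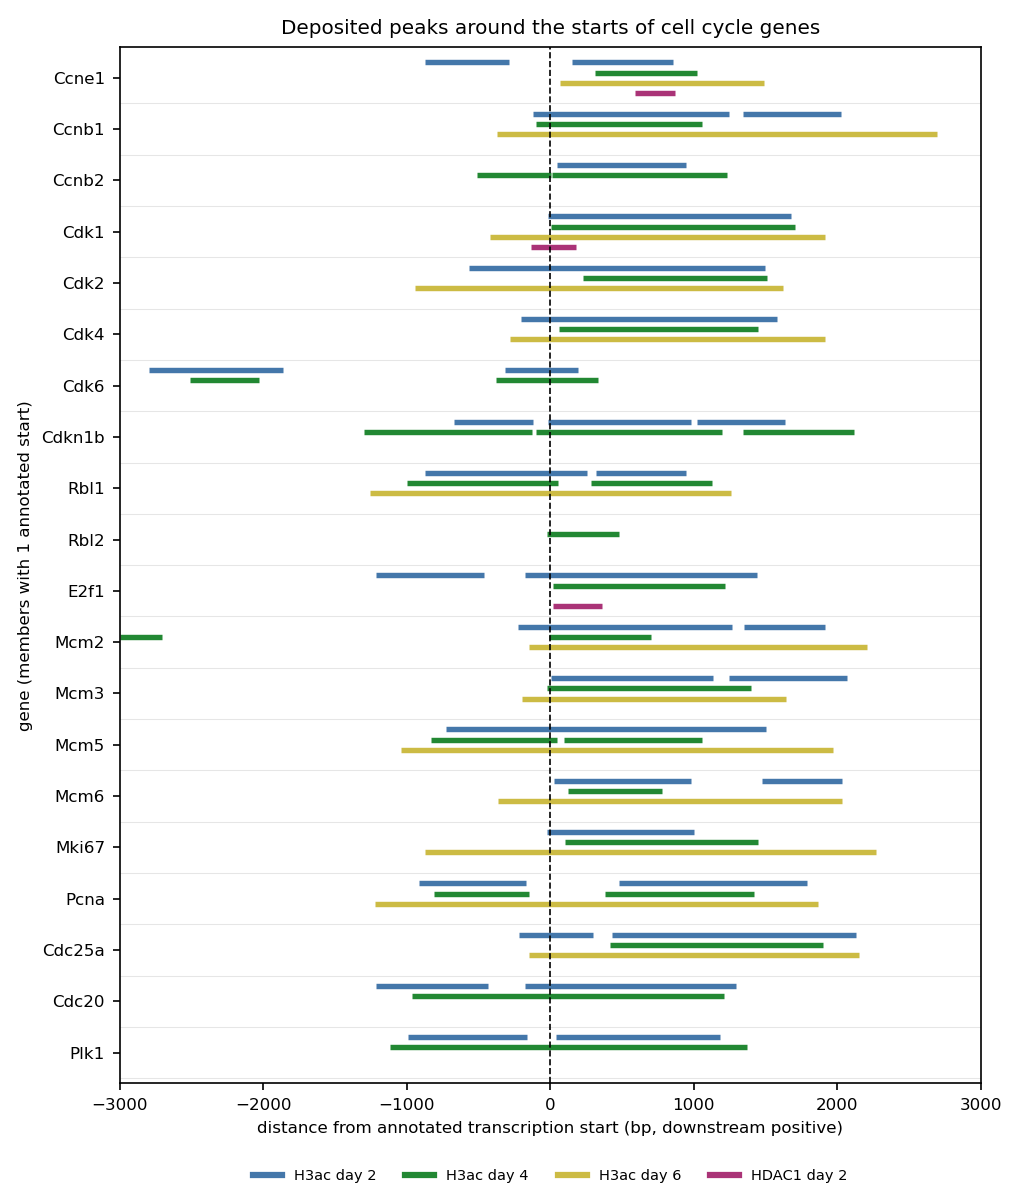
Peaks of each list as bars from 3 kb upstream to 3 kb downstream of the annotated start (dashed line) for the 20 members with 1 annotated start, H3ac days 2, 4 and 6 and HDAC1 from top to bottom in each row. Most bars extend to the right of the line, day 6 bars cross it at most genes, and Ccnb2, Cdk6, Cdkn1b, Rbl2, E2f1, Cdc20 and Plk1 have no day 6 bar.

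The member promoters shared sequence features. Genes of these roles include known targets of E2F, CHR and CCAAT control, as set out above, so these shares are not independent of the choice of genes. In windows from 250 bases before to 50 after each start, an exact E2F site of the strict form was present at 11 of 27 members (40.7%), against 2.76% of 17492 protein-coding genes. These were Cdc25a, Cdk1, Cdk2, Cdkn2a, E2f2, E2f3, Mcm3, Mcm5, Mcm6, Mcm7 and Rbl1. The shorter form, which includes the strict one, was at 14 of 27 (51.9%), against 11.8%. A CHR was at 10 of 27 (37.0%), against 20.2%, namely at Ccnb2, Cdc20, Cdk1, Plk1, Mki67, E2f2, E2f3, Mcm2, Mcm7 and Rbl2. A CCAAT box was at 20 of 27 (74.1%), against 42.3%, and a GC box (GGGCGG) at 25 of 27 (92.6%), against 49.2%. Member windows were also richer in CpG, with a median of 24.5 against 13 over all protein-coding promoters. The part of base composition in the motif shares was not tested. Of the 16 members with an H3ac peak on all 3 days and a promoter entry, 9 held a strict E2F site and 5 a CHR. Of the 9 with a peak on day 2 or 4 and none on day 6, 2 held a strict E2F site and 5 a CHR. Such small numbers were not tested, and a match of letters does not show a bound site. Of the 5 HDAC1-marked members with an entry, Cdk1, Mcm7 and E2f2 held a strict E2F site. Ccne1 and E2f1 held none in this window of 300 bases, of which the sequences above show the inner 210. For E2f1 the window lies inside the gene and leaves its outer end unsearched, so a site there would be missed.

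Acetylation went with CpG content across the genome, and most members with a promoter entry were in the CpG-richer class. Of genes with at least the median of 15 CpG in their richest promoter window, 65.8%, 63.0% and 39.1% were marked on days 2, 4 and 6 and 15.3% carried HDAC1. Below it the shares were 16.5%, 14.0%, 8.14% and 3.93%. Of the 27 members with an entry, 25 lay at or above the median, and 23 (92%), 22 (88%) and 15 (60%) of these were marked on days 2, 4 and 6, with HDAC1 at 5 (20%). These shares cover 25 members and lie nearer the ceiling. Their gaps to all genes are therefore not set against those over all 36 members. The part of CpG content in the counts was not tested.

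The 90 other cell cycle genes listed beside the members gave like counts, with 81, 81 and 54 marked on days 2, 4 and 6 (90%, 90% and 60%) and 19 with HDAC1 (21.1%). Of 17 genes of origin licensing and firing, 15, 15 and 9 were marked and 4 carried HDAC1, among them Orc3 and Orc6. Orc3, a subunit of the origin recognition complex, led this list on day 2 with 549.96. Of 22 genes of DNA polymerases, clamp loading and nucleotide supply, 20, 21 and 12 were marked. Rrm2, a subunit of ribonucleotide reductase, scored 542.38, 607.58 and 199.97. Of 19 genes of mitosis and the spindle checkpoint, 18, 19 and 14 were marked and 5 carried HDAC1. Aurka, the kinase of spindle poles, had the highest scores of these 19 in every list, 772.36, 670.08 and 242.11 for H3ac on days 2, 4 and 6 and 140.95 for HDAC1, and so differed from Plk1 on day 6. Of 12 other E2F, DP, MuvB and MYB factor genes, 10, 11 and 9 were marked and 0 carried HDAC1. Mybl2, the gene of B-Myb, scored highest of them on day 2 (422.32) and had no gene-end peak on day 6. Of 9 checkpoint and p53 genes, 9, 7 and 4 were marked and 3 carried HDAC1. The remaining 11 genes of inhibitors and CDK-associated proteins gave 9, 8 and 6, with 3 carrying HDAC1.

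**Figure D5:**
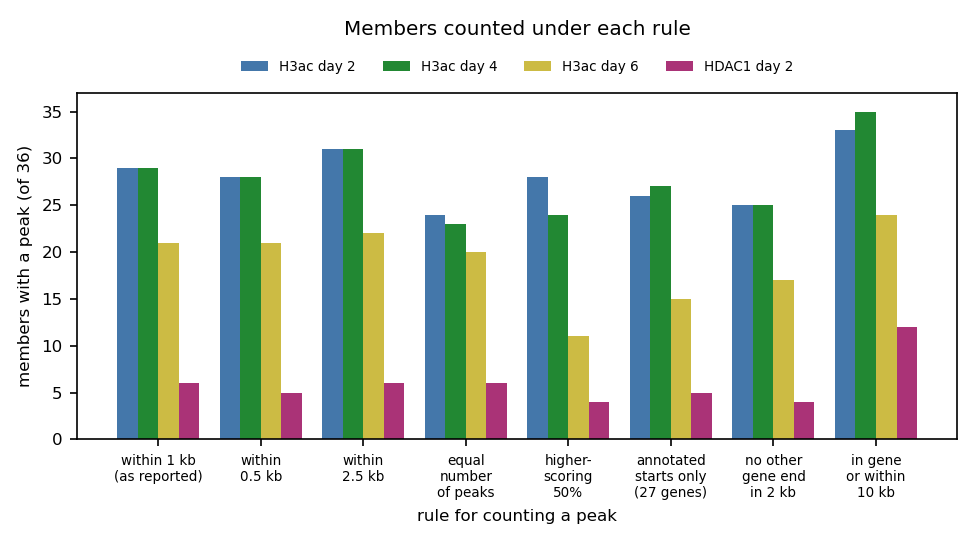
Number of the 36 members counted as marked in each list (y axis) under each rule for counting a peak (x axis), the first being the one reported. Day 6 is below days 2 and 4 under every rule shown, with the narrowest gap for equal numbers of peaks (24, 23 and 20), and HDAC1 goes from 6 to 12 members when any peak within 10 kb counts.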

How the data were processed

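The deposited files were 4 peak lists, 1 for each precipitated library. Reads were aligned with Bowtie 0.12.8 to mm10, per the submitters' processing notes, and the deposited peak names begin with MACS, while the MACS version, its threshold and how the 4 inputs entered the calls are not stated in these sources. The score in each list is the authors' own, has no stated scale and was used only within its list. Starts were read as 0-based and are given 1-based.

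Genes came from a RefSeq table of GRCm38.p6. Peaks reaching to within 1 kb of a gene's lower or higher end marked that gene. Promoters and starts came from the RefSeq promoter table. Python 3.11.15 with pandas 2.3.3 and SciPy 1.17.1 gave counts and 95% Wilson intervals. With 1 library per group no test was made and no p-value computed. Counting was tested on simulated data with planted peaks. All members are named, and other genes by highest score or HDAC1 peak in their list. Members and gene lists were chosen with earlier results of these data known. Lpar6, the CpG comparison, the comparisons by score for Plk1, Cdc20, Ccnb2 and E2f4, and the 10 kb rule were added after values were seen. Alternatives were windows of 0.5 and 2.5 kb, equal numbers of peaks, the higher-scoring 50%, annotated starts, and ends with no neighbour within 2 kb.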

Additional observations from a re-analysis of the deposited data

How the results depend on the processing

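The counts of members marked on days 2 and 4 kept near the reported 29 under every rule tried, ranging from 24 to 33 on day 2 and from 23 to 35 on day 4. With the higher-scoring 50% of each list, the day 6 count was 11 instead of 21 and the count for all 3 days was 9 instead of 19, where fewer peaks were available by construction. With any peak in the gene or within 10 kb, a rule chosen after seeing the data, 12 members instead of 6 had an HDAC1 peak, against 21.5% of all genes, and 12 instead of 6 had both HDAC1 and day 2 H3ac, against 17.7%. The count at annotated starts rests on the 27 members with an entry. Read depth is unknown, so a missing peak is not a missing mark. No paired analysis was possible because each group had 1 library, and for the same reason no replicate could be left out.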
